A study of Mus musculus with 6 samples.

Results

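The surface Toll-like receptor genes with their co-receptors and adaptors form a set of 10 genes: Cd14, Ly96, Tlr1, Tlr2, Tlr4, Tlr6, Myd88, Tirap, Ticam1 and Ticam2. They were chosen by symbol, and all 10 stood in the deposited table of 55401 genes and were abundant enough to be tested. The comparison was between 3 libraries of mouse cells exposed to neutrophil extracellular traps (NETs, webs of DNA and granule protein shed by neutrophils) and 3 libraries of untreated cells. All cells carried a wild-type genotype. The labels name bone marrow-derived macrophages, whereas the sample titles carry BV2, the name of a mouse microglial line. How much NETs the cells received, for how long, and whether replicates came from separate cultures is not stated in these sources. The p-values therefore measure only how far these samples spread, and that spread may be technical.

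Toll-like receptors (TLRs) are membrane proteins with which macrophages recognise molecules of microbes and of damaged cells. At the cell surface, CD14 hands bacterial lipopolysaccharide to TLR4 and its partner MD-2, which Ly96 encodes, while TLR2 pairs with TLR1 or TLR6 to bind lipopeptides. Inside the cell the receptors recruit adaptors. TIRAP bridges TLR2 and TLR4 to MyD88, the adaptor that leads to NF-kB, and TRAM (Ticam2) bridges TLR4 to TRIF (Ticam1), the adaptor that leads to interferon.

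Total counts ran from 39994613 to 44274445 per library. The 8 macrophage markers examined were all above 1 CPM on average (CPM, the count of a gene scaled to a fixed library size, here with TMM factors), and their summed level was 5364 to 5556 CPM in control and 5132 to 5367 CPM in NETs-treated libraries. Among the microglia markers Sall1 was at 0, and P2ry12 averaged 0.878 CPM in control and 0.129 CPM after NETs. Of 11 neutrophil markers 6 were at 0 in every library, Ly6g, Mpo, Ltf, Ngp, Retnlg and S100a9. The summed neutrophil level was 5.37 to 7.31 CPM in control and 10.4 to 16.6 CPM in NETs-treated libraries, with S100a8 at 2.68 and 11.7 CPM on average. The other 2 neutrophil markers above 1 CPM in control had lower means after NETs, Cxcr2 with 1.60 and 0.809 CPM (edgeR adjusted p = 0.0383) and Mmp8 with 1.80 and 1.03 CPM (adjusted p = 0.0925). The 2 monocyte markers, Ly6c2 and Ccr2, summed to at most 0.186 CPM. The dendritic cell markers summed to 4.90 to 5.44 CPM in control and 4.30 to 5.61 CPM after NETs, with Zbtb46 the only one above 1 CPM, and the B cell markers to at most 0.282 CPM. All T cell markers were at 0. What part these marker levels have in the results was not tested.

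The 10 genes did not move as a block. Cd14, Ly96 and Tirap were higher in NETs-treated cells, Tlr2, Ticam2 and Myd88 were lower, and Tlr1, Tlr4, Tlr6 and Ticam1 did not pass the test. The count of 3 higher and 3 lower was taken at a Benjamini-Hochberg adjusted p under 0.05 in edgeR's quasi-likelihood test over 15272 genes. By the same rule 52.7% of all tested genes were called, 25.5% as higher and 27.2% as lower, so a count of 6 in 10 lies near that background. The median log2 fold change was 0.05 for the 10 genes and -0.02 for all tested genes. The median size of the change, without its sign, was 0.47 and 0.52. The groups did not overlap for 8 of the 10 genes, against 62.4% of all tested genes. A change of at least 2-fold was found for 3 of the 10, Cd14, Tlr2 and Ticam2, against 24.4% of all tested genes.

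**Figure D1:**
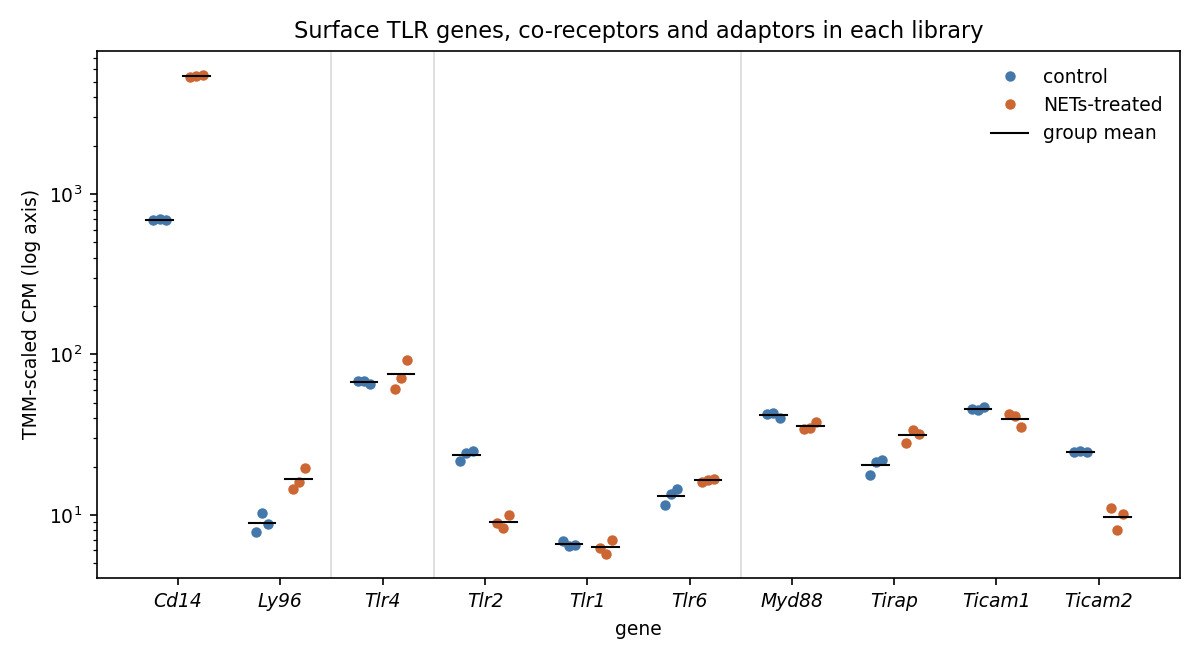
TMM-scaled CPM (log axis) of the 10 genes in the 3 control and 3 NETs-treated libraries, with 1 point per library and a bar at the group mean. Cd14 lies between 687 and 698 CPM in control and between 5379 and 5540 CPM in NETs-treated libraries, while the libraries of both groups overlap for Tlr4 and Tlr1.

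Cd14, the co-receptor that captures lipopolysaccharide, had 688, 698 and 687 CPM in the control libraries and 5379, 5407 and 5540 CPM in the NETs-treated ones. Every treated library was thus far above every control library, and the 3 libraries of each group lay close together. The rise was 7.88-fold, a log2 fold change of 2.98 ± 0.05 (SE, n = 3 per group; edgeR adjusted p = 6.71e-09). It was the 166th largest rise among the tested genes. The gene (ENSMUSG00000051439.7) lies on chromosome 18 from 36725067 to 36726798 in GRCm38. These are bulk libraries, in which more cells that express a gene and more RNA per cell cannot be told apart. Cd14 took 0.0704% to 0.0715% of all counts in control and 0.524% to 0.542% in NETs-treated libraries. Of the counts of the 10 genes together, not scaled by length, Cd14 made up 73.0% to 73.6% in control and 95.5% to 96.0% after NETs. Per kilobase of exon it ranked 92nd of 15253 genes with a length in control and 10th after NETs.

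Ly96 encodes MD-2, the small protein on TLR4 that holds the lipid part of lipopolysaccharide. It had 7.81, 10.3 and 8.77 CPM in control and 14.5, 16.1 and 19.7 CPM in NETs-treated libraries. The groups did not overlap, and the log2 fold change was 0.91 ± 0.16 (SE; edgeR adjusted p = 0.00166). Ly96 (ENSMUSG00000025779.10) spans 16688051 to 16709611 on chromosome 1.

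Tlr4, the receptor that these co-receptors serve, had 68.5, 68.2 and 65.5 CPM in control and 61.2, 71.0 and 93.0 CPM in NETs-treated libraries. The treated libraries lay on both sides of the control ones. Its log2 fold change was 0.15 with a 95% interval from -0.16 to 0.47 (edgeR adjusted p = 0.380), so a change of that size in either direction was not detectable here. The value depended on NETs-treated replicate 3, the highest library. Without it the log2 fold change was -0.02, and without NETs-treated replicate 1 it was 0.30. Tlr4 (ENSMUSG00000039005.13) spans 66827584 to 66930284 on chromosome 4.

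The balance between the receptor and its co-receptors differed between the groups. The ratio of Cd14 to Tlr4 within a library was 7.18-fold higher after NETs, with a log2 ratio of 3.35 ± 0.03 in control and 6.19 ± 0.28 in NETs-treated libraries (SD, n = 3 each). For Ly96 against Tlr4 the log2 ratio went from -2.85 ± 0.19 to -2.12 ± 0.09, a 1.66-fold higher ratio. Both ratios were higher in all 3 treated libraries than in any control library. The exact two-sided permutation test gave p = 0.10 for each, the smallest p that 3 libraries against 3 allow, and an adjusted p of 0.111 over the 10 pairs of genes compared, so neither can pass a threshold of 0.05.

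Tlr2, which binds bacterial lipopeptides, went the opposite way from Cd14. It had 21.8, 24.3 and 24.9 CPM in control and 8.89, 8.26 and 9.91 CPM in NETs-treated libraries. All treated libraries were below all control libraries. The level was 2.63-fold lower, a log2 fold change of -1.39 ± 0.12 (SE; edgeR adjusted p = 2.95e-05). Tlr2 (ENSMUSG00000027995.10) spans 83836272 to 83841767 on chromosome 3.

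The partners of TLR2 did not show this fall. Tlr6 had 11.5, 13.5 and 14.5 CPM in control and 16.0, 16.6 and 16.8 CPM after NETs, with no overlap. Its log2 fold change of 0.32 ± 0.12 (SE) missed the threshold narrowly (edgeR adjusted p = 0.0517). It passed in 5 of 17 alternative settings, among them limma-voom (adjusted p = 0.0452) and correction for GC content (adjusted p = 0.0131 in edgeR), with the largest adjusted p of the 17 at 0.171. Tlr1 had 6.84, 6.36 and 6.46 CPM in control and 6.23, 5.71 and 6.95 CPM in NETs-treated libraries, which overlapped. Its log2 fold change was -0.06 with a 95% interval from -0.42 to 0.30 (edgeR adjusted p = 0.784), and it was 0.03 without NETs-treated replicate 2 and 0.0052 with correction for GC content.

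Tlr1 (ENSMUSG00000044827.10; 64924679 to 64933563) and Tlr6 (ENSMUSG00000051498.7; 64952031 to 64960097) are neighbours on chromosome 5 and close copies of each other. Of the 50-base stretches of the longest Tlr1 transcript, 15.3% also stand in a Tlr6 transcript, which makes their separate levels uncertain. Summed over both genes, the level was 19.7 ± 1.28 CPM in control and 22.8 ± 0.861 CPM after NETs (SD, n = 3 each), a log2 fold change of 0.21 ± 0.10 (SE; edgeR adjusted p = 0.108). This sum was added after the data had been seen.

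Set against each other per kilobase of exon, Tlr2 made up 58.4% to 59.4% of the sum of Tlr1, Tlr2 and Tlr6 in control libraries and 30.8% to 33.3% in NETs-treated libraries. The share of Tlr6 was 25.0% to 27.6% in control and 47.1%, 50.02% and 45.7% after NETs. Per length, Tlr2 was the most abundant of the 3 in every control library and Tlr6 in every treated library. The ratio of Tlr6 to Tlr2 was 3.17-fold higher and that of Tlr1 to Tlr2 was 2.45-fold higher after NETs. The log2 ratio of Tlr2 to Tlr4 went from -1.49 ± 0.13 to -2.97 ± 0.23 (SD, n = 3 each). None of these 3 ratios overlapped between the groups (exact permutation p = 0.10 for each, adjusted p = 0.111).

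**Figure D2:**
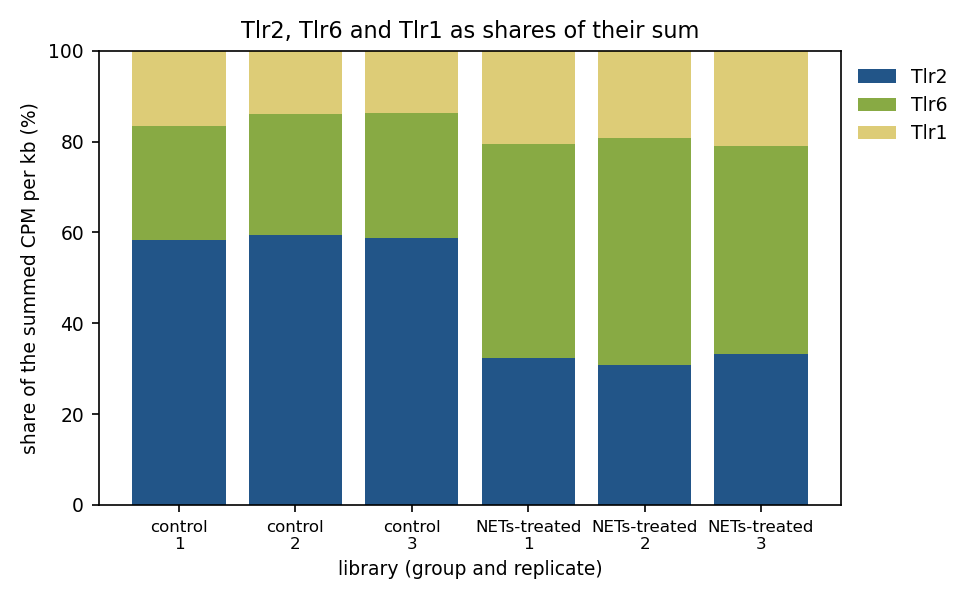
Shares of Tlr2, Tlr6 and Tlr1 in the sum of their CPM per kilobase of exon (percent), with 1 bar per library. Tlr2 holds 58.4% to 59.4% in the control libraries and 30.8% to 33.3% in the NETs-treated libraries.

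Among the adaptors, Ticam2, which encodes TRAM, fell most. It had 24.5, 25.2 and 24.5 CPM in control and 11.1, 8.03 and 10.2 CPM in NETs-treated libraries, with no overlap. The level was 2.53-fold lower, a log2 fold change of -1.34 ± 0.14 (SE; edgeR adjusted p = 7.22e-05). Ticam2 (ENSMUSG00000056130.10) spans 46557291 to 46574533 on chromosome 18. It shares exon sequence on the same strand with Tmed7, and 19% of the 50-base stretches of its longest transcript also stand in Tmed7 transcripts. Tmed7, which helps to carry TLR4 to the cell surface, had 183 ± 15.6 CPM in control and 229 ± 45.4 CPM after NETs (SD, n = 3 each) and did not pass (edgeR adjusted p = 0.0719). How the authors counted the shared reads is not stated.

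Ticam1, which encodes TRIF, the adaptor that TRAM brings to TLR4, had 45.8, 44.8 and 47.3 CPM in control and 42.5, 41.2 and 35.2 CPM in NETs-treated libraries. All treated libraries were lower, but the log2 fold change of -0.21, with a 95% interval from -0.42 to -0.01, did not pass (edgeR adjusted p = 0.0772). The call was gained with scaling by library size only (adjusted p = 0.0240) and without NETs-treated replicate 1 (adjusted p = 0.0426). Correction for GC content turned the value to 0.02 (edgeR adjusted p = 0.846). Without NETs-treated replicate 3, the lowest library, it was -0.13. The ratio of Ticam2 to Ticam1 had a log2 value of -0.88 ± 0.06 in control and -1.98 ± 0.28 after NETs (SD, n = 3 each), and the groups did not overlap (exact permutation p = 0.10, adjusted p = 0.111). The bridging adaptor was therefore lower relative to TRIF in every treated library. Ticam1 (ENSMUSG00000047123.8) spans 56269319 to 56276786 on chromosome 17.

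Tirap, the bridge of the other branch, moved the opposite way from Ticam2. It had 17.8, 21.2 and 22.1 CPM in control and 28.2, 33.8 and 32.1 CPM in NETs-treated libraries, with no overlap. The rise was 1.54-fold, a log2 fold change of 0.62 ± 0.12 (SE; edgeR adjusted p = 0.00221). Tirap (ENSMUSG00000032041.15) spans 35184551 to 35200291 on chromosome 9. Of the 50-base stretches of its longest transcript, 10.7% also stand in transcripts of 122 other genes. Gm39318, which lies on the opposite strand, holds 8.68% and averaged 0.748 CPM in control and 1.16 CPM after NETs. Srpr, which overlaps 39 bases of Tirap exons on the opposite strand, averaged 148 CPM in control and 154 CPM after NETs.

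Myd88, the adaptor shared by nearly all TLRs and the interleukin-1 receptor family, had 42.3, 43.2 and 40.1 CPM in control and 34.4, 34.8 and 37.8 CPM in NETs-treated libraries. The treated libraries were all lower, by a small margin. The log2 fold change of -0.23 ± 0.08 (SE) passed in the main test (edgeR adjusted p = 0.0381) but in only 5 of 17 alternative settings. Its adjusted p over the 17 ran from 0.0123 to 0.749, the last with correction for GC content, where the log2 fold change was -0.04. Leaving out any 1 library other than NETs-treated replicate 3 ended the call, with an edgeR adjusted p between 0.0651 and 0.158. Myd88 (ENSMUSG00000032508.8; chromosome 9, 119335934 to 119341411) overlaps exons of Acaa1a on the opposite strand, which rose from 100 ± 3.92 to 124 ± 9.81 CPM (SD, n = 3 each; edgeR adjusted p = 0.00957). Whether counting parted the strands is not stated.

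The 2 bridging adaptors thus went in opposite directions, while their partners differed little. The log2 ratio of Tirap to Myd88 went from -1.03 ± 0.19 in control to -0.19 ± 0.13 in NETs-treated libraries (SD, n = 3 each), with no overlap (exact permutation p = 0.10, adjusted p = 0.111). The log2 ratio of Ticam1 to Myd88 was 0.14 ± 0.09 in control and 0.15 ± 0.22 after NETs, and these values overlapped (exact permutation p = 1.0).

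**Figure D3:**
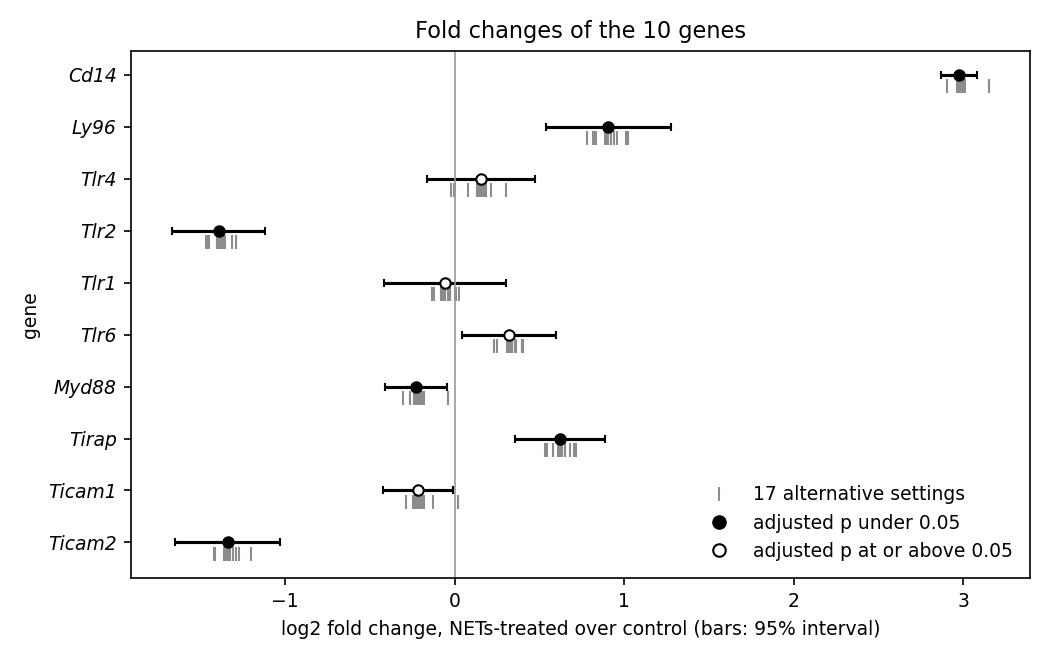
Log2 fold change of each of the 10 genes, NETs-treated over control, with its 95% interval (filled points, adjusted p under 0.05 in edgeR), and grey ticks for the 17 alternative settings. The ticks stay on 1 side of 0 for Cd14, Ly96, Tlr2, Tlr6, Myd88, Tirap and Ticam2, and fall on both sides for Tlr4, Tlr1 and Ticam1.

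The order of the levels was taken per kilobase of exon. In control, Cd14 was highest at 399 ± 3.51 CPM per kilobase (SD, n = 3). Myd88 at 16.2 ± 0.624 and Ticam1 at 15.4 ± 0.431 followed, with libraries that overlapped, and then Tlr4 at 12.1 ± 0.301. Ly96 at 8.76 ± 1.21 and Tlr2 at 7.85 ± 0.558 overlapped. Ticam2 at 4.27 ± 0.0656 overlapped Tirap at 4.13 ± 0.453, and Tirap overlapped Tlr6 at 3.53 ± 0.401, while Tlr1 was lowest at 1.96 ± 0.0758.

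After NETs this order differed. Cd14 was at 3142 ± 49.5 CPM per kilobase, and Ly96 had moved from the fifth place to the second at 16.4 ± 2.61, although its libraries overlapped those of Myd88 at 13.8 ± 0.712 and of Tlr4 at 13.5 ± 2.92. Ticam1 at 13.2 ± 1.29 overlapped both Myd88 and Tlr4. Tirap was at 6.36 ± 0.586 and Tlr6 at 4.42 ± 0.113. Tlr2 at 2.99 ± 0.277 had dropped below Tlr6. Ticam2 went from the seventh place to the last at 1.68 ± 0.270, where its libraries overlapped those of Tlr1 at 1.88 ± 0.185.

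Start-site windows of 300 bases from RefSeq (GRCm38.p6) matched 6 of the 10 genes, Tlr1, Tlr2, Tlr6, Tirap, Myd88 and Ticam1. They were searched on both strands for a kappa-B motif of the kind that NF-kB binds, GGG followed by any 3 bases and TTCC, and for an interferon-response motif, GAAA followed by any 2 bases and GAAA. These letters were chosen with the windows in view. An AP-1 motif, TGANTCA, and a PU.1 motif, GAGGAA, were searched as well. The 3 stretches shown lie outside annotated exons and hold a kappa-B or interferon-response match, in capitals. They were picked since Tlr2 and Tlr6 are partners that differed in their response and Myd88 is the adaptor they share.
Tlr2: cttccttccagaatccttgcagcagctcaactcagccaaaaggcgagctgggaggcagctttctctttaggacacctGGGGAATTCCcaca
Tlr6: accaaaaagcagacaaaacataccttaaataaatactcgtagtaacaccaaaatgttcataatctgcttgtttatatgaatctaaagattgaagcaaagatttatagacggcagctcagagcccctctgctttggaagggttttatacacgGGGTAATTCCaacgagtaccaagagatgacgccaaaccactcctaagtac
Myd88: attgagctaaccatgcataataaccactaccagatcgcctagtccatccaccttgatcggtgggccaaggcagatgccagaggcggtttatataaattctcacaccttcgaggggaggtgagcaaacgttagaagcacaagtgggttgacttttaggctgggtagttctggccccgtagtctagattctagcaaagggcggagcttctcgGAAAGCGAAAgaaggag

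All 3 are written from 5′ to 3′ on the minus strand, at chr3:83841768-83841858, chr5:64960098-64960298 and chr9:119340042-119340268. Of the 32851 RefSeq windows, 5.56% hold the kappa-B letters and 3.44% the interferon-response letters. The AP-1 letters stand in 7.81% of all windows and in none of these 6 genes. The PU.1 letters stand in 28.3% of all windows, in a window of Tlr1 and in that of Ticam1, but not in another Tlr1 window. A second Tlr6 window, for another start and not shown, holds 2 overlapping matches of the interferon-response letters, and 1 of the 2 Tirap windows holds the kappa-B letters. A match describes letters only. The kappa-B letters stood upstream both of Tlr2, which fell, and of Tlr6, which did not pass.

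By their pattern over the 6 libraries, the genes most like Cd14 were Rhob, Abca1, Kctd12, Pde4b and Gm17709. Their root mean square distance from Cd14, in mean-centred log2 CPM, was 0.0554 for Rhob to 0.125 for Gm17709, out of 9161 genes that averaged 10 CPM or more. Rhob, a small GTPase gene, had a log2 fold change of 2.89, and Abca1, a cholesterol exporter gene, of 2.99. The genes most like Tlr2 were Tlr7, Etv1, Nusap1, Arhgef6 and Zfp36l1, at distances of 0.0474 to 0.0618. The nearest of these was another Toll-like receptor gene, Tlr7, with a log2 fold change of -1.38.

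The rest of the pathway was read from lists of receptors, accessory proteins, kinases, brakes and targets. Of the 63 tested genes in the lists, 25 were higher and 26 lower in edgeR, where 25.5% of all tested genes were called higher and 27.2% lower. Of the other Toll-like receptors 4 of 5 tested genes fell, as Tlr2 did. The list median was -1.49 on the log2 scale. Tlr13, an endosomal sensor of bacterial ribosomal RNA, had 540, 569 and 580 CPM in control and 70.1, 74.2 and 77.7 CPM in NETs-treated libraries. Its log2 fold change was -2.93 ± 0.07 (SE). Tlr3, which binds double-stranded RNA, had -1.49 ± 0.23. Tlr5, the flagellin receptor, had at most 4 counts in any library and was not tested.

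Chaperones and accessory proteins of the receptors were mostly lower, with 7 of 11 falling and 1 rising. Cd180, a surface relative of TLR4, had 92.1, 93.8 and 104 CPM in control and 9.34, 13.1 and 11.9 CPM after NETs, a log2 fold change of -3.08 ± 0.13 (SE; edgeR adjusted p = 7.26e-07). Ly86, which encodes MD-1, the partner of CD180 and counterpart of MD-2, was chosen for mention after its values were seen and had -0.81 ± 0.17 (edgeR adjusted p = 0.00367). The Cd180 and Ly86 pair was thus lower where Ly96 was higher. Hsp90b1, the chaperone gp96 that folds most TLRs, had a log2 fold change of -1.70 ± 0.06, and Unc93b1, which escorts endosomal TLRs, of -1.41 ± 0.13. Cd36, a scavenger receptor that assists TLR2 with TLR6, rose by 0.62 ± 0.12 on the log2 scale.

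Of 20 kinases and ubiquitin ligases that act below the adaptors, 10 rose and 5 fell, the latter a share close to the 27.2% of all tested genes called lower. Their median was 0.29 (log2). Map3k8, the kinase TPL2 that leads to ERK, rose most, from 5.40, 5.29 and 5.95 CPM to 22.5, 22.5 and 19.9 CPM, a log2 fold change of 1.96 ± 0.12 (SE). Tbk1, the kinase of interferon induction, rose by 1.01 ± 0.08, and the ubiquitin-conjugating gene Ube2n by 0.78 ± 0.08. Against these, Ikbke, the close relative of Tbk1, had -1.41 ± 0.08. Irak1, a kinase that MyD88 recruits, had 115, 116 and 120 CPM in control and 52.9, 47.8 and 44.3 CPM after NETs, a log2 fold change of -1.28 ± 0.08. Pik3ap1, the adaptor BCAP, had -0.84 ± 0.07.

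Of 11 tested brakes on receptor signalling 7 rose and 2 fell, and the median was 0.46. The ribonuclease gene Zc3h12a had 2.65 ± 0.14 (SE, log2 fold change). Irak3, the kinase-dead IRAK-M that restrains the MyD88 complex, had 8.74, 11.9 and 10.6 CPM in control and 44.8, 46.4 and 40.4 CPM after NETs. That is a log2 fold change of 2.07 ± 0.13 (edgeR adjusted p = 5.04e-06), so Irak3 rose where Irak1 fell. Tnfaip3, the ubiquitin editor A20, had 1.20 ± 0.07. Sigirr, an inhibitory receptor, had -0.92 ± 0.18, and Inpp5d, the lipid phosphatase SHIP1, had -0.26 ± 0.09.

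The medians of the genes listed as targets of the 2 adaptor arms stood on opposite sides of 0. The lists name genes only, and whether these genes followed either adaptor in these cells was not tested. Of 8 tested targets of the MyD88 arm 7 rose and 1 fell, and the median was 2.96 (log2). Il1b, the inflammatory cytokine, went from a mean of 1.05 to 86.4 CPM, the chemokine gene Cxcl2 from 37.2 to 1228 CPM and Ptgs2, the prostaglandin synthase COX-2, from 19.4 to 593 CPM. Tnf, a standard target of this arm, was the exception, with 64.6, 64.9 and 60.9 CPM in control and 57.2, 46.8 and 40.8 CPM in NETs-treated libraries (log2 fold change -0.39 ± 0.12, edgeR adjusted p = 0.0226). Of 8 tested targets of the TRIF arm 7 fell, and Ccl5 did not pass (edgeR adjusted p = 0.762). The median was -1.87 (log2). Rsad2, the antiviral enzyme viperin, had 35.7, 37.6 and 42.5 CPM in control and 7.78, 7.83 and 10.8 CPM after NETs. Ifit1 and Ifit3 were low already in control, with means of 3.07 and 2.66 CPM, and were at 0 in NETs-treated replicates 2 and 3. Cxcl10 was low in control as well, at 2.23 CPM on average. Ifnb1, the interferon gene at the end of the TRIF arm, had 0 counts in all 6 libraries.

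**Figure D4:**
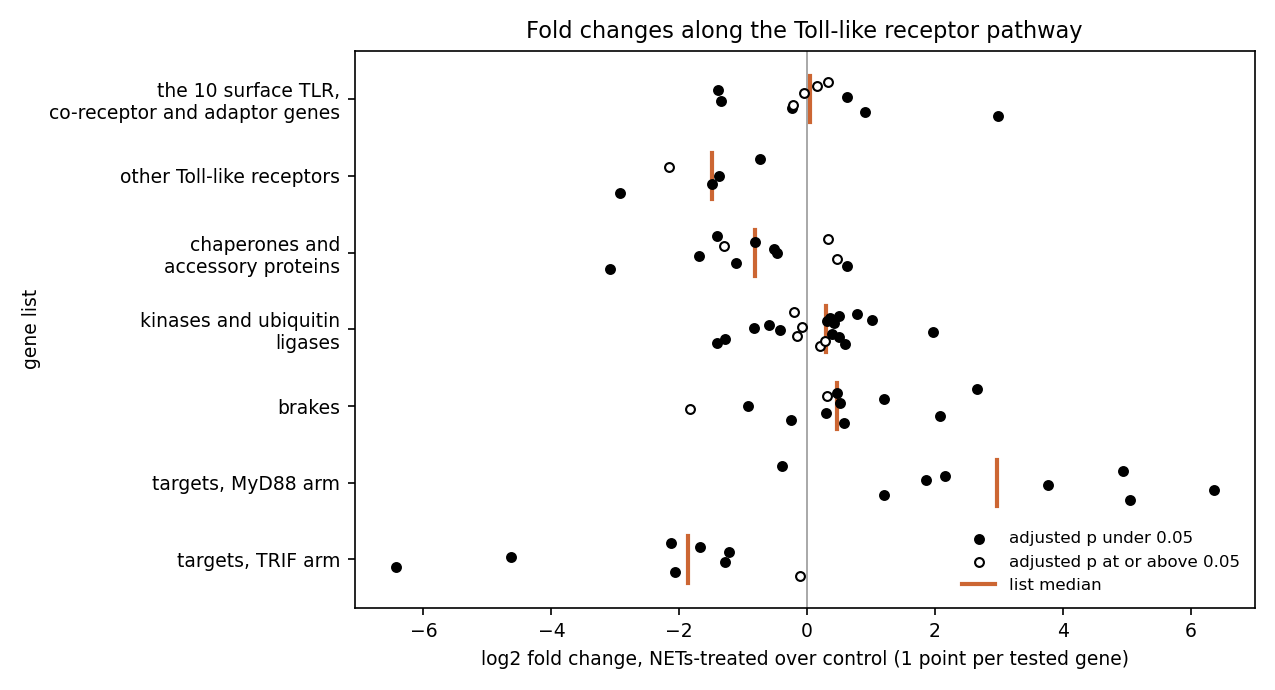
Log2 fold change, NETs-treated over control, of each tested gene in the set of 10 and in the 6 pathway lists (filled points, adjusted p under 0.05 in edgeR), with the list median as a bar. The median is 2.96 for the genes listed as MyD88 targets, -1.87 for those listed as TRIF targets and 0.05 for the set of 10.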

How the data were processed

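Libraries kept strand information according to the labels' protocols. Tools and builds named in the submitters' processing notes are HISAT2, DESeq2, mm10 and rn6, with no version or role. Which program counted reads, with which strand option and gene annotation, is not given in the sources used here. The authors deposited raw counts per gene, which were tested here. The deposited normalised counts are a signal equal to the count divided by 1 factor per sample. The authors' log2 fold changes and p-values in the deposited table served as an alternative.

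All 6 libraries were fitted in edgeR 4.0.16 (R 4.3.3) with TMM scaling, a minimum count of 10 and minimum total of 15, which kept 15272 genes. Tests were two-sided, adjusted by Benjamini-Hochberg at 0.05. The fit was tested on simulated data. Library pairs of one group differed beyond sampling noise (chi-square per gene 9.38 to 70.8). Ratios used CPM with 0.5 added. Exon lengths, GC content and coordinates came from GENCODE M21 (GRCm38), matched without version.

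Genes and lists were chosen with earlier results of these data known. Named from each list were the 3 largest rises and falls among called genes, and the 5 genes nearest in pattern to the members that rose and fell most. Alternatives were other scalings, limma-voom 3.58.1, DESeq2 1.42.0, other filters, GC correction (lowess span 0.3), a replicate block, leaving out each library, and the deposited fold changes.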

Additional observations from a re-analysis of the deposited data

How the results depend on the processing

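The calls of Cd14, Ly96, Tlr2, Ticam2 and Tirap kept their direction and their side of the threshold in all 17 alternatives. Myd88 lost its call in 12 of them, Tlr6 gained one in 5 and Ticam1 in 2. The members called higher numbered 3 or 4 and those called lower 2 to 4 in every alternative. The share of all tested genes called in either direction was 52.7% in the main test. Over the alternatives it ran from 30.0% with no filter to 61.2% with a filter of 1 CPM in 3 samples, so the background of these counts shifted too. Sign changes were found only for values that had not passed. With GC content correction, which moved the median log2 fold change of all tested genes from -0.02 to 0.08, Tlr1 had 0.0052 and Ticam1 0.018. With the replicate block and GC content correction together, Tlr4 had -0.0022, Tlr1 0.0026 and Ticam1 0.019. Leaving out 1 library gave -0.019 to 0.304 for Tlr4, -0.125 to 0.027 for Tlr1, and -0.066 to 0.134 for the log2 ratio of Ticam1 to Myd88. For Tlr1 the sum with Tlr6, chosen after seeing the data, gave 0.21.

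Replicate numbers are shared between the groups, but same-numbered libraries deviated together with correlations of only 0.206, 0.028 and 0.0759, and not every library correlated best with its own number, so the numbers were not taken as pairs. With the replicate block, 3 members were called higher and 2 lower, since Myd88 reached an adjusted p of 0.0587 in edgeR. Over all genes the block gave 3896 higher and 4209 lower calls.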
